A study of Mus musculus with 8 samples.

Results

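The EGR, NR4A and other early response genes examined here are Egr1, Egr2, Egr3, Nr4a1, Nr4a2, Nr4a3, Ier2, Ier3, Atf3 and Zfp36. These 10 genes were listed by name, and all 10 were found among the 32780 genes to which the transcripts of the series were joined. The series measured total RNA of TC1 cells, mouse embryonic stem cells of wild-type genotype, before and after differentiation with 4 libraries each. The day 0 group was the undifferentiated culture, labelled control, and the day 10 group was the culture after 10 days of differentiation, labelled differentiated cells with no cell type named. Cells of both groups were dissociated to a single-cell suspension before RNA extraction, per the series description. All libraries thus came from 1 line and passed through a dissociation step, and whether the 4 libraries of a group stem from different dishes is not stated. The p-values therefore measure the spread between these libraries, which may be technical. In bulk RNA, fewer cells of a type and less RNA per cell cannot be told apart.

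Early response genes are switched on within minutes of a stimulus, without new protein synthesis, by factors that already sit on their promoters. Growth factor signals reach them through the ERK kinases, serum response factor (SRF) and its partners, and cyclic AMP and calcium signals reach them through the CREB family. EGR1, EGR2 and EGR3 are zinc finger transcription factors, NR4A1, NR4A2 and NR4A3 are orphan nuclear receptors that act without a known hormone, ATF3 is a stress-induced factor of the ATF and CREB family, and ZFP36 (tristetraprolin) binds AU-rich elements and promotes decay of the mRNA. Ier2 and Ier3 encode small proteins named for their immediate early induction. Transcripts of this class are short-lived, and handling or dissociation of cells is known to induce them.

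Of the 10 genes, 9 rose between day 0 and day 10, 0 fell, and Ier3 did not pass the test. Over all 15097 genes tested 82.1% were called in either direction, 42.7% higher and 39.4% lower. The same 9 genes were called more than 2-fold higher, against 24.1% of all genes, and in those 9 each day 10 library lay above every day 0 library, against 40.8% of all genes. The median log2 change of the 10 genes was 3.80, beside 0.06 over all genes tested. A log2 change of at least 3 was reached by 6 of the 10 against 11.7% of all genes, and a change of at least 5 by 3 of the 10, the EGR genes, against 5.97%. Together the 10 genes took 0.00922 to 0.00980% of a library's estimated counts at day 0 and 0.149 to 0.203% at day 10.

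**Figure D1:**
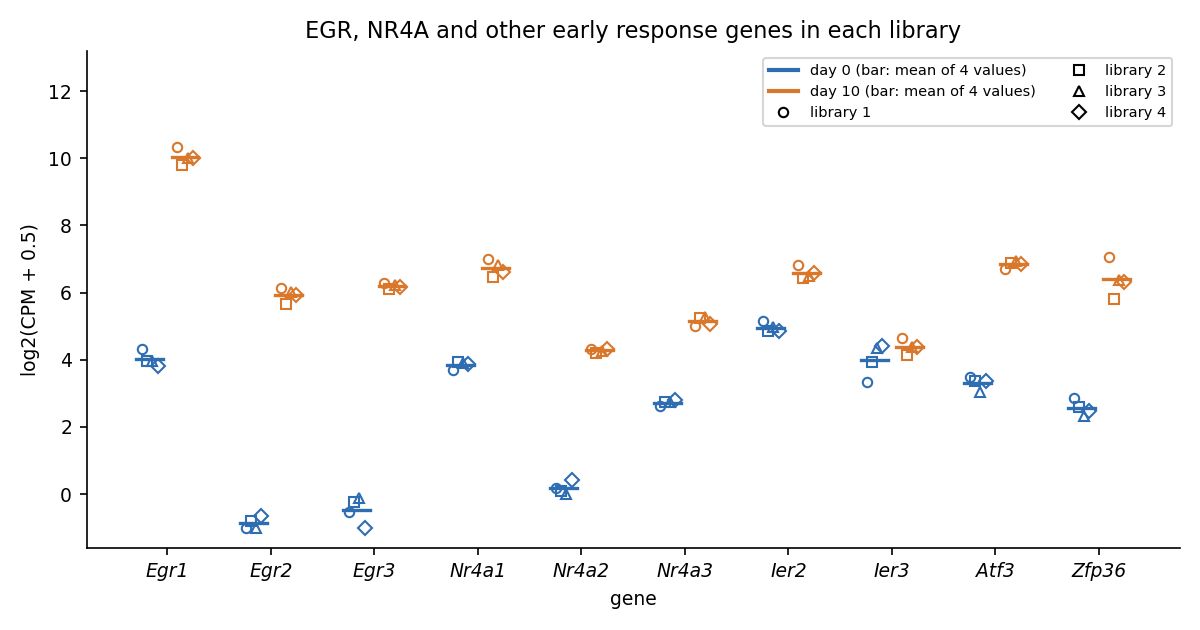
Level of each gene in each library as log2(CPM + 0.5), CPM being counts scaled to a library of 1000000; symbols mark the libraries and bars the mean of the 4 values of a day. In 9 genes the day 10 symbols all lie above the day 0 symbols, and in Ier3 they overlap.

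Libraries held 11242568 to 15808039 estimated counts at day 0 and 13525255 to 17843651 at day 10. The balance of rises and falls over all genes depended on the unit. Of called genes 52% were higher on counts and 65.8% on TPM (values scaled for transcript length, tested with limma-trend), where the median log2 change of all genes was 0.43. Stem cell markers matched the day 0 label. All 10 of them were lower at day 10 (9 on TPM, where Klf2 was at log2 -0.29 with adjusted p = 0.0532), and their summed level went from 3459 to 3773 CPM to 65.4 to 110 CPM. Day 10 libraries held markers of several cell types. Summed levels at day 0 and day 10 were 68.9 to 91.0 and 895 to 1478 CPM for 10 cardiomyocyte markers (9 of 9 tested higher), and 67.8 to 77.9 and 475 to 576 CPM for 10 endothelial markers (9 of 10 higher). They were 144.1 to 157 and 5473 to 9839 CPM for 10 smooth muscle and fibroblast markers (9 of 10 higher), and 546 to 600 and 571 to 1446 CPM for 10 endoderm markers (7 of 10 higher). For 10 macrophage markers they were 23.7 to 27.95 and 69.3 to 146 CPM (7 of 9 tested higher, with Lyz2, Adgre1 and Tyrobp at 0 counts at day 0). The part of this change in cell types in the changes of the early response genes was not tested.

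The EGR genes showed the steepest rises. Egr1 (ENSMUSG00000038418, chromosome 18), the best known sensor gene of the ERK and SRF pathway, was at 19.4, 15.1, 15.1 and 13.6 CPM in day 0 libraries 1 to 4. At day 10 it was at 1294, 883, 1031 and 1032 CPM. The groups were far apart, and library 1 was the highest on each day. The log2 change was 6.07 ± 0.15 (SE, adjusted p = 1.16e-11, edgeR). By TPM, which allows levels of different genes to be compared, Egr1 stood at 7.93 ± 1.67 (SD, n = 4) at day 0 and 732 ± 104 at day 10. It thereby moved from position 8760 to position 140 among 21860 protein-coding genes.

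Egr2 (ENSMUSG00000037868, chromosome 10), also known as Krox20 and required in the hindbrain and in myelinating glia, was almost undetected at day 0. Its counts were 0, 1, 0 and 2 in the 4 day 0 libraries and 958, 813, 878 and 1088 at day 10, or 50.2 to 70.5 CPM. Scaled for library size, the 3 counts against 3737 give a ratio of 1060 with a 95% exact counting interval of 364 to 5160, which covers counting error only. The fitted log2 change was 9.86 ± 0.27 (adjusted p = 6.53e-13) and is no bound. On the log2(TPM + 0.5) scale it was 6.52. Egr3 (ENSMUSG00000033730, chromosome 14), a gene that EGR1 and calcium signals are known to induce, had 2, 5, 5 and 0 counts at day 0. At day 10 it had 1051, 1097, 1012 and 1279 counts, or 67.7 to 77.3 CPM. Its day 10 libraries differed little, with a coefficient of variation of 5.55%, against 13.8% for Egr2 and 16.1% for Egr1. The log2 change of Egr3 was 8.25 ± 0.23 (adjusted p = 1.39e-12), or 6.04 on log2(TPM + 0.5), a scale that understates changes of genes near 0.

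Since Egr2 is a gene of myelinating glia, glial and neural crest markers were read beside it. Their summed level was 46.9 to 50.2 CPM at day 0 and 31.6 to 41.8 CPM at day 10, with 1 of 5 tested markers higher and 1 lower. Among the defining markers, Sox10 and S100b had 0 counts at day 0, and 10 counts and 1 count over the 4 day 10 libraries. Within the EGR family Egr1 held 95.9 to 99.0% of the summed TPM in day 0 libraries and 88.1 to 90.01% at day 10. At day 10 Egr2 held 5.58 to 6.79% and Egr3 4.38 to 5.50%.

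The promoter of Egr2 is shown because it held matches to sequences of both kinds of pathway named above, for cyclic AMP to a core sequence only. Promoter windows of 250 bases before to 50 bases after a RefSeq start site (GRCm38.p6) were at hand for 7 of the 10 genes. Egr1, Egr3 and Ier2 had no window and were not searched. The windows were searched on both strands for the CArG box, the SRF binding sequence, and for TGACG, the core of the cyclic AMP response element. Egr2 has 5 such windows, which in part overlap, and 4 of them held a CArG box and 3 held TGACG. The stretch of chromosome 10 given here ends 46 bases before the start site that matches the start of Egr2-201, the transcript with 91.7 to 98.3% of the gene's counts at day 10. Capitals mark the CArG box and both TGACG matches, of which the second reads CGTCA on this strand.
Egr2, chr10:67537753-67537823, plus strand: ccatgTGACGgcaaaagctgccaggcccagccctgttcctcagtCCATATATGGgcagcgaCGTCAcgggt
A CArG box was found in 1.6% of all 32851 promoter windows and TGACG in 20.8%. The full cyclic AMP response element, TGACGTCA, was also searched. It was found in 0 of the 7 genes with a window, Egr2 among them, and in 1.8% of all windows. A match is a description of the letters and not a binding site.

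All 3 NR4A genes rose. Nr4a1 (ENSMUSG00000023034, chromosome 15), also called Nur77 and induced in many cell types by growth and antigen receptor signals, was at 12.4, 14.8, 14.6 and 14.01 CPM at day 0. At day 10 it was at 129, 88.3, 112 and 97.9 CPM. The groups did not overlap, and the log2 change was 2.93 ± 0.12 (adjusted p = 3.69e-11). Nr4a2 (ENSMUSG00000026826, chromosome 2), also called Nurr1 and required for dopamine neurons, had 7, 8, 6 and 13 counts at day 0. It had 266, 292, 258 and 345 counts at day 10, or 18.03 to 19.6 CPM. In CPM this was the narrowest spread of the 10 genes at that day, with a coefficient of variation of 3.61%. In TPM Nr4a2 spread more widely at day 10, from 12.8 to 16.7. It was thus low on both days, yet its log2 change of 4.85 ± 0.18 (adjusted p = 9.86e-12) was larger than that of its relatives.

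Nr4a3 (ENSMUSG00000028341, chromosome 4), also called Nor1, was at 5.71, 6.13, 6.15 and 6.41 CPM at day 0 and at 31.9, 37.4, 38.1 and 32.9 CPM at day 10. Here day 10 library 1 was the lowest of its day, unlike for Nr4a1. The log2 change was 2.52 ± 0.11 (adjusted p = 4.94e-11). With the trend of changes with transcript length removed it was 1.89, and Nr4a3 has the highest average transcript length of the 10 genes. Within the family Nr4a1 held 77.3 to 83.5% of the summed TPM in day 0 libraries and 77.1 to 83.1% at day 10. The share of Nr4a2 went from 1.95 to 7.36% to 7.46 to 11.8%, and that of Nr4a3 from 14.2 to 15.7% to 9.42 to 12.99%.

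The NR4A promoters are printed because they share a feature, which was picked out from several sequences searched in these same windows. Each of the 3 windows held 4 matches to TGACG, whereas 76 of all 32851 windows (0.23%) held 4 or more. The cut-off of 4 is the count that these 3 windows held. The other windows were not matched for base composition, so the share is a description and not a test. Capitals mark the matches, which read CGTCA where TGACG lies on the other strand. Each stretch is written 5′ to 3′ in the direction of the gene.
Nr4a1, chr15:101266606-101266815, plus strand: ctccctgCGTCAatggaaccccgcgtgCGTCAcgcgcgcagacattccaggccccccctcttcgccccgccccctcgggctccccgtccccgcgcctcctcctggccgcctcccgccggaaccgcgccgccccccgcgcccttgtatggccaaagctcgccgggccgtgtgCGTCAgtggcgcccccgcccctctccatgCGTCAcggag
Nr4a2, chr2:57124104-57124208, minus strand: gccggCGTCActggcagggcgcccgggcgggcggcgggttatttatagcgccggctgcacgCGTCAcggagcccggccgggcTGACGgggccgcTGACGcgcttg
Nr4a3, chr4:48045069-48045167, plus strand: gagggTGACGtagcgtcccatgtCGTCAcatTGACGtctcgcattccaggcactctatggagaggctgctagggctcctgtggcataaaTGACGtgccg
In Nr4a1 the matches begin 233, 213, 69 and 40 bases before the start site. In Nr4a2 they begin between 200 and 111 bases before it, and in Nr4a3 231, 213, 205 and 147 bases before it. Of the other genes with a window, Egr2 held 2 matches in 3 of its 5 windows, which overlap, and Atf3 held 1 match. Ier3 and Zfp36 had no match in these windows.

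Among the other genes Atf3 and Zfp36 rose more than 8-fold. Atf3 (ENSMUSG00000026628, chromosome 1) was at 10.6, 9.75, 7.75 and 9.88 CPM at day 0 and at 104, 118, 123 and 115 CPM at day 10. Its day 10 libraries lay close together, with a coefficient of variation of 7.26%, against 12.9% at day 0. The log2 change was 3.60 ± 0.10 (adjusted p = 7.15e-13). Zfp36 (ENSMUSG00000044786, chromosome 7) was at 6.82, 5.50, 4.55 and 5.04 CPM at day 0. At day 10 it was at 133, 55.9, 82.9 and 79.3 CPM. The day 10 libraries spread widely, library 1 being highest and library 2 lowest, with a coefficient of variation of 36.9%, the largest of the 10 genes at that day. The groups nonetheless did not overlap, and the log2 change was 4.01 ± 0.30 (adjusted p = 2.30e-06). Without day 10 library 1 it was 3.71.

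The Zfp36 promoter is given because, of the 7 genes with a window, only Egr2 and Zfp36 held a CArG box. Its capitals mark, in order, a match to GCGNGGGCG, the sequence bound by EGR proteins, and the CArG box.
Zfp36, chr7:28379274-28379338, minus strand: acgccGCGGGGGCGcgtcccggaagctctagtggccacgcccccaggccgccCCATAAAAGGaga
The EGR sequence was found in 3 of the 7 genes (Nr4a1, Nr4a2 and Zfp36) and in 5.6% of all windows, and in Nr4a1 and Nr4a2 it shares bases with a match to GGGCGG, the SP1 sequence, which all 7 genes and 35.7% of all windows held.

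Ier2 (ENSMUSG00000053560, chromosome 8) was the most highly expressed of the 10 genes at day 0. It was at 34.7, 28.3, 30.9 and 28.7 CPM at day 0 and at 112, 85.6, 89.5 and 94.8 CPM at day 10. The rise was the smallest of the 9, with a log2 change of 1.64 ± 0.10 (adjusted p = 1.40e-09). Ier3 (ENSMUSG00000003541, chromosome 17), which is also known as IEX-1 and modulates cell survival, was at 9.68, 14.7, 19.96 and 20.6 CPM at day 0 and at 24.7, 17.04, 20.5 and 20.4 CPM at day 10. The groups overlapped, with day 0 library 1 the lowest of all and day 10 library 1 the highest. The log2 change was 0.34 ± 0.21 (adjusted p = 0.152). Ier3 passed the test on TPM (log2 0.78, or 0.35 above the all-gene median, adjusted p = 0.00353) and once the trend of changes with length was taken out (log2 0.81, adjusted p = 0.00226). Its transcript of 1131 nucleotides is the shortest annotated main transcript of the 10. Over 19 alternatives its adjusted p was 0.00226 to 0.363.

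**Figure D2:**
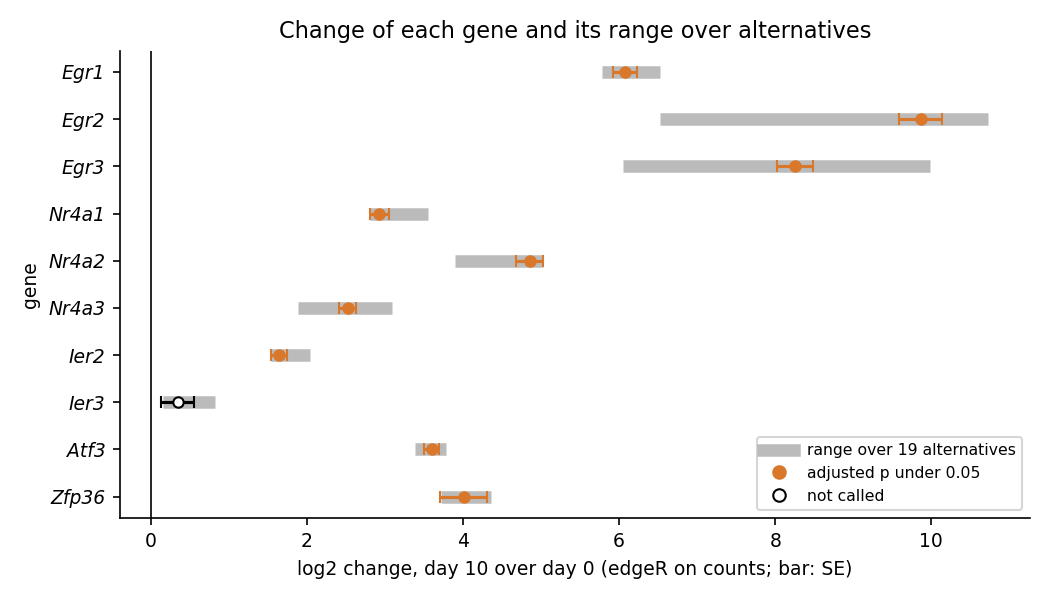
Log2 change from day 0 to day 10 for each gene, with SE as the error bar and the range over 19 alternative analyses as the grey band. The bands of Egr2 and Egr3 reach from 6.52 to 10.73 and from 6.04 to 9.99, both genes having few day 0 counts, and that of Ier3 from 0.15 to 0.81.

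By TPM the order of levels changed between the days. At day 0 it ran Ier2 (35.0 ± 3.71), Ier3 (26.1 ± 7.45), Atf3 (10.7 ± 3.16), Nr4a1 (9.87 ± 1.03), Egr1 (7.93 ± 1.67), Zfp36 (3.54 ± 0.646), Nr4a3 (1.82 ± 0.0983), Nr4a2 (0.482 ± 0.277), Egr3 (0.134 ± 0.116) and Egr2 (0.0577 ± 0.0765). Ranges of neighbours overlapped for Ier2 and Ier3, for Atf3, Nr4a1 and Egr1, and for Nr4a2, Egr3 and Egr2, and lay apart elsewhere. At day 10 Egr1 led and stood apart from the rest. Ier2 (144.2 ± 15.3), Atf3 (143.4 ± 10.2), Nr4a1 (117 ± 18.4), Zfp36 (76.6 ± 27.1), Egr2 (50.8 ± 7.46), Ier3 (44.0 ± 5.76) and Egr3 (40.8 ± 1.61) followed, each overlapping with its next neighbour. Nr4a3 (16.2 ± 1.24) and Nr4a2 (13.8 ± 1.90) came last and overlapped with each other. Values are mean ± SD over n = 4 libraries.

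Libraries of day 10 differed in the same sense for most of the 10 genes. Day 10 library 1 was the highest of its day for 8 of the 10 and library 2 the lowest for 8 of the 10, whereas library 1 was highest for 28% and library 2 lowest for 30.4% of all genes tested. The exceptions at the upper end were Nr4a3 and Atf3, for which library 1 was the lowest and library 3 the highest. The summed level of the 10 genes was 1995, 1421, 1654 and 1624 CPM in day 10 libraries 1 to 4, and 701, 538, 623 and 592 CPM without Egr1. Of 6 AP-1 genes tested library 1 was highest for 3 and library 2 lowest for 5. Markers of some cell types differed in the same sense. The summed smooth muscle and fibroblast markers stood at 9839, 5473, 8009 and 7717 CPM in day 10 libraries 1 to 4, with library 1 highest for 8 and library 2 lowest for 9 of 10 genes. The summed macrophage markers stood at 146, 69.3, 127.6 and 144.1 CPM, with library 1 highest for 5 and library 2 lowest for 9 of 9 tested genes. Other lists did not share that order, as the endoderm markers stood at 571, 1446, 981 and 980 CPM. The part of these differences in the order of the early response genes was not tested. At day 0 the summed level was 95.3 to 100.3 CPM, and no library was highest for more than 4 of the 10. Leaving out any single library kept all 9 genes called.

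**Figure D3:**
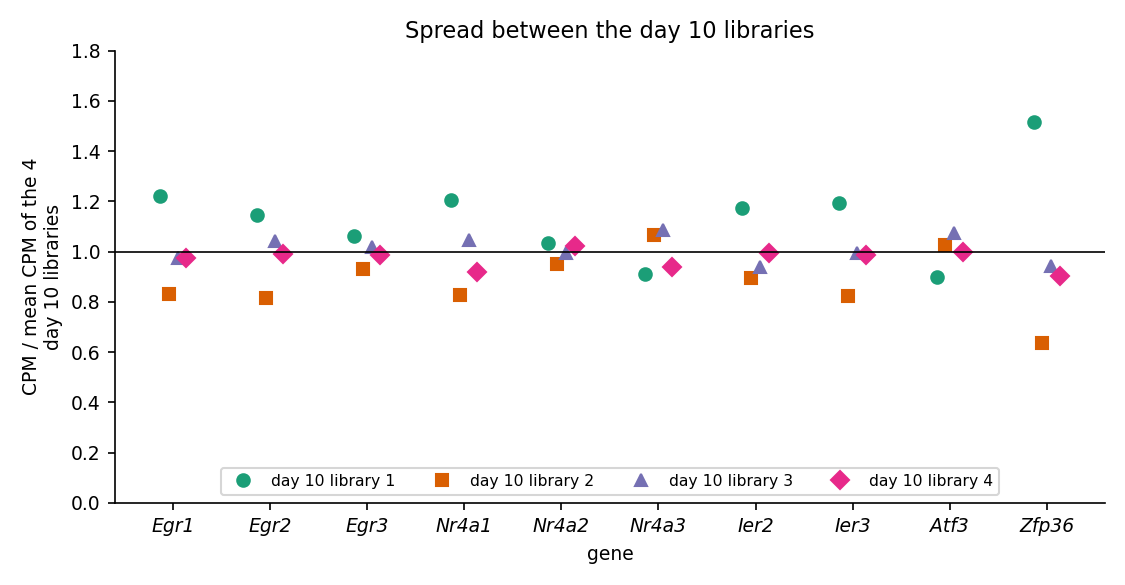
CPM of each gene in each day 10 library divided by the mean of the 4 day 10 libraries. Library 1 lies at the top in 8 genes and library 2 at the bottom in 8, and the widest spread is that of Zfp36, from 55.9 to 133 CPM.

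Transcript annotation divided the 10 genes into 34 transcripts, of which 25 are protein-coding, 2 retain an intron, 6 are processed transcripts without a coding sequence and 1 is a target of nonsense-mediated decay. Shares of a gene's counts were tested for the 5 genes with several transcripts and at least 20 counts in every library, as 9 shares with a two-sided exact permutation test over 70 assignments. None passed after adjustment over the 9, where the smallest possible p of 0.0286 becomes 0.0643. That smallest p was reached by 4 shares, so in each of these 4 the groups did not overlap. Reads that fit several overlapping transcripts are shared out between them by estimation, so these shares are less certain than the gene totals.

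In Nr4a1 the retained-intron transcript held 2.45, 3.76, 1.77 and 1.51% of the counts at day 0 and 7.32, 7.95, 6.54 and 8.81% at day 10 (p = 0.0286, adjusted p = 0.0643, exact permutation test). By share of TPM, which weights short transcripts more, the difference was 12.36 percentage points in place of 5.28 (adjusted p = 0.0857, exact permutation test). The main coding transcript, Nr4a1-201, went from 71.0 ± 12.7% to 89.7 ± 0.796% with the same p-values, a difference of 18.7 percentage points that was 5.51 by share of TPM (adjusted p = 0.486, exact permutation test). The alternative coding transcript Nr4a1-202 held 14.6 to 41.4% at day 0 and 0.436 to 4.04% at day 10. In Atf3 the coding transcript Atf3-201 went from 80.7 ± 7.73% to 97.4 ± 1.93% (p = 0.0286, adjusted p = 0.0643, exact permutation test), a difference of 16.7 percentage points, or 25.7 by share of TPM. In Nr4a3 the processed transcripts held 0% in every day 0 library and 0.892 to 4.496% at day 10 (the same p-values), a difference of 2.21 percentage points, or 12.63 by share of TPM. There Nr4a3-203, the main coding transcript, was at 66.6 ± 16.0% and 87.4 ± 3.65% (p = 0.114, adjusted p = 0.171, exact permutation test). The main transcripts of Egr1 (81.7 ± 13.21% and 91.2 ± 1.65%, adjusted p = 0.257) and Zfp36 (75.3 ± 24.6% and 86.8 ± 2.62%, adjusted p = 0.429) did not pass the exact permutation test either. In all 5 genes the main coding transcript had the higher mean share and the smaller spread at day 10, where the counts behind it were higher.

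**Figure D4:**
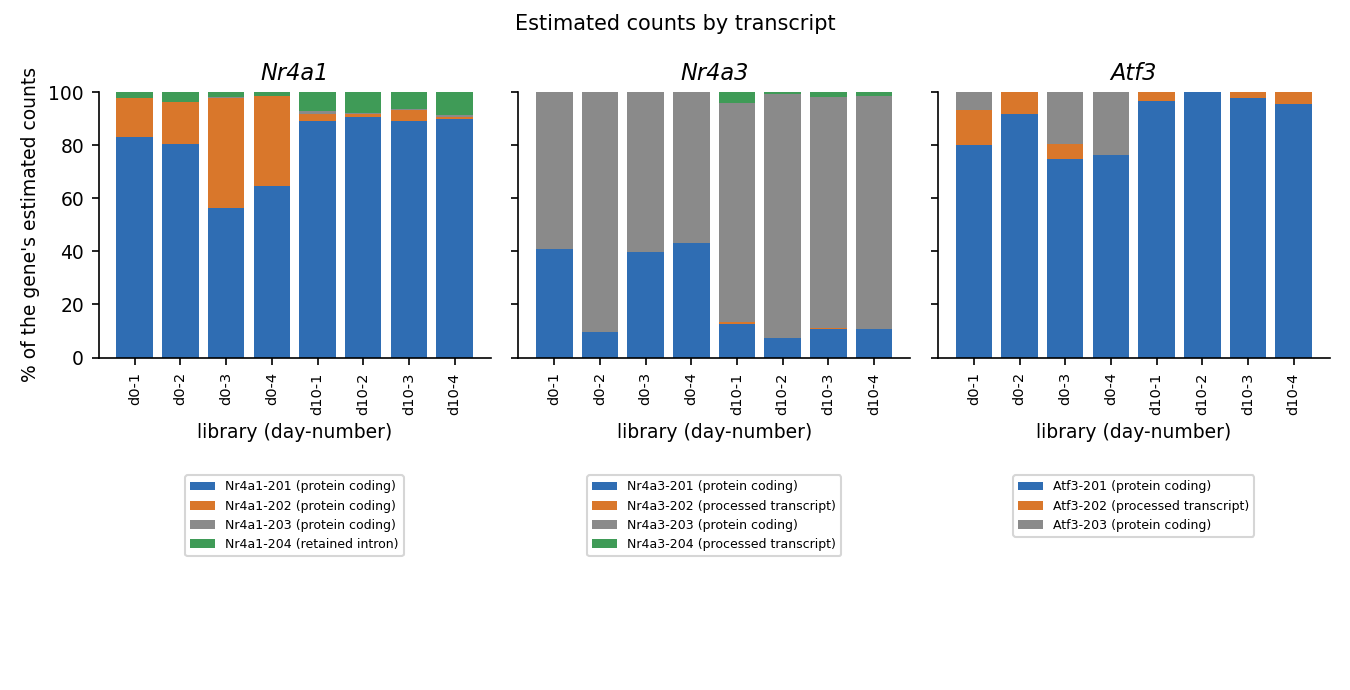
Share of the estimated counts of Nr4a1, Nr4a3 and Atf3 on each annotated transcript, 1 bar per library, with day 0 libraries at the left and day 10 libraries at the right. The retained-intron transcript of Nr4a1 covers 1.51 to 3.76% of a bar at day 0 and 6.54 to 8.81% at day 10.

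Egr2, Egr3 and Nr4a2 had too few day 0 counts for such a test. At day 10 the retained-intron transcript Egr3-202, which is annotated as 1 exon, held 24.7 to 44.1% of the Egr3 counts and the spliced coding transcript Egr3-204 held 54.2 to 73.6%. At day 0 Egr3-202 held 9.67 of the 12 counts of Egr3 and Egr3-204 held 0, which allows a share of up to 25.0%. Nr4a2 counts lay mainly on Nr4a2-203 at day 10 (65.4 to 78.7%), and the transcript subject to nonsense-mediated decay, Nr4a2-206, held 17.4 to 24.0%. Both held 0 of 34 counts at day 0, which allows a share of up to 8.82% for each. These limits cover counting error only.

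AU-rich sequences in 3′ UTRs are shown because ZFP36 binds them and because they are known from early response transcripts. The heptamer TATTTAT, the DNA letters of the ZFP36 core element, was counted in the annotated 3′ UTR of the most abundant coding transcript of each gene. It was present in 5 of the 10 genes, with 4 copies in Ier3, 3 in Zfp36, 2 in Nr4a3 and 1 each in Nr4a2 and Atf3. Of 7541 tested coding genes with a 3′ UTR in the length range of the 10 genes (543 to 3095 nucleotides), 32.5% held at least 1 copy and 10.0% at least 2. The EGR genes, Nr4a1 and Ier2 held none in these transcripts. Ier3, the gene that did not pass the test, thus had the most copies, and Zfp36 carries the element in its own transcript. The first copy of each of the 3 genes with several copies is given in capitals, with 10 bases on either side. The Ier3 stretch also holds the next copy, left in lower case.
Ier3: gtctaattaaTATTTATgtatttatgt
Zfp36: gtgggcccttTATTTATgacgacttta
Nr4a3: gctttgcctgTATTTATtgcaagacca

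Relatives and binding partners of the 10 genes also rose, with 10 of 12 tested called higher and 1 lower (median log2 1.64). Over all genes tested 42.7% were higher and 39.4% lower. Ier5, a relative of Ier2, went from 3.52 ± 0.442 to 38.2 ± 6.53 CPM (mean ± SD, n = 4, as for the genes below; log2 3.45 ± 0.15, adjusted p = 5.30e-11). Rxra, a nuclear receptor with which NR4A1 and NR4A2 can pair, went from 14.1 ± 1.65 to 68.6 ± 7.23 CPM (log2 2.28 ± 0.11). The EGR corepressors Nab1 and Nab2 and the ZFP36 paralogues Zfp36l1 and Zfp36l2 were among the genes called higher, at log2 1.99, 1.61, 1.67 and 1.22, and are named here after their values were seen. All 6 AP-1 genes tested were higher (median log2 4.69). Fosb went from 0.152 ± 0.0558 to 664 ± 61.8 CPM and Fos from 3.97 ± 1.36 to 1000 ± 88.3 CPM. The log2 changes of these 2 genes, 12.004 ± 0.15 and 7.95 ± 0.18, exceeded that of Egr1. Fosb had only 8 counts over the day 0 libraries, so its size of change is imprecise, and it ran from 9.75 to 12.21 over alternatives.

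Of 38 other early response genes 26 were higher and 9 lower (median log2 1.32), or 28 and 4 on TPM. Over all 15097 genes tested 6449 were higher and 5950 lower, or 7863 and 4095 on TPM. Ptgs2, the inducible cyclooxygenase, went from 0.635 ± 0.295 to 70.1 ± 15.3 CPM (log2 6.74 ± 0.27), and Nfkbiz, a nuclear regulator of NF-κB target genes, from 7.26 ± 0.899 to 110 ± 13.16 CPM (log2 3.93 ± 0.12). Myc fell from 26.7 ± 8.87 to 5.95 ± 0.962 CPM (log2 -2.16 ± 0.22, adjusted p = 1.86e-06) and Sgk1, a kinase induced by serum and glucocorticoids, from 83.2 ± 8.39 to 28.6 ± 4.09 CPM (log2 -1.54 ± 0.11, adjusted p = 6.81e-09). The class did not therefore move as a block.

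Genes upstream of early response promoters changed less. Among SRF, CREB and ERK pathway genes 13 of 22 tested were higher and 7 lower (median log2 0.37), or 16 and 3 on TPM. For this list and the next, 42.7% of all genes tested were higher and 39.4% lower. On TPM 7863 of all 15097 genes were higher and 4095 lower, so TPM moved the balance over all genes too. Elk3, a partner of SRF, rose by 2.18 ± 0.12 and the CREB coactivator Crtc1 by 1.74 ± 0.13 on the log2 scale. For Crtc1 the range over alternatives was 0.72 to 2.72. The kinase genes Rps6ka1 (log2 -1.76 ± 0.09) and Map2k1, which encodes MEK1 (log2 -1.16 ± 0.08), fell. A further list, headed ERK feedback, held genes of DUSP phosphatases and of Sprouty and Spred proteins. Of its 16 genes 8 were higher and 5 lower (median log2 0.58), or 11 and 3 on TPM. The phosphatase genes Dusp10 (log2 2.19 ± 0.16) and Dusp8 (log2 2.11 ± 0.21) rose. The list does not part phosphatases of ERK from those of other kinases, so these 2 rises are not a measure of ERK feedback. Spry4 fell from 272 ± 17.5 to 50.2 ± 5.48 CPM (log2 -2.44 ± 0.08, adjusted p = 5.15e-12) and Spry2 from 109 ± 6.15 to 44.7 ± 2.55 CPM (log2 -1.28 ± 0.07).

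Atf3 is a known target of the integrated stress response, the pathway that ATF4 drives, and of heat and other insults, so genes of both kinds were read beside it. What part either pathway has in the Atf3 values was not tested. Of 15 tested genes of the integrated stress response 10 were lower and 5 higher (median log2 -0.85), beside 39.4% lower and 42.7% higher over all genes. Trib3 fell from 17.9 ± 0.840 to 2.31 ± 0.959 CPM (log2 -2.96 ± 0.23) and Asns, the asparagine synthetase gene, from 338 ± 21.7 to 49.3 ± 18.2 CPM (log2 -2.77 ± 0.24, adjusted p = 8.28e-06). Ddit3, which encodes CHOP, rose from 4.61 ± 1.02 to 16.6 ± 2.61 CPM (log2 1.83 ± 0.18, or 0.75 at the lowest over alternatives), and Ppp1r15a, which encodes GADD34, from 41.8 ± 1.55 to 142.1 ± 10.5 CPM (log2 1.77 ± 0.07). Heat shock genes, which dissociation can induce, were lower in 8 and higher in 4 of 13 cases (median log2 -0.64, or 6 and 4 on TPM). Hspb1 fell from 132 ± 29.9 to 16.5 ± 1.46 CPM and Hsp90aa1 from 4877 ± 229 to 973 ± 50.4 CPM, whereas Dnajb4 (log2 1.16 ± 0.10) and Bag3 (log2 0.94 ± 0.10) rose. Hspa1a and Hspa1b averaged under 5 CPM and are named after their values were seen. Hspa1a rose from 1.62 ± 0.158 to 4.07 ± 1.38 CPM (log2 1.32 ± 0.28). Hspa1b fell from 3.74 ± 0.693 to 2.37 ± 0.584 CPM (log2 -0.64 ± 0.25), a call that ended under several alternatives. Whether the dissociation step had a part in the early response values was not tested.

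Genes of mRNA decay with which ZFP36 works showed no common direction on counts. Of 18 tested 5 were higher and 8 lower (median log2 -0.06), and on TPM 11 were higher and 2 lower. Over all genes tested 42.7% were higher and 39.4% lower on counts. On TPM 7863 of 15097 were higher and 4095 lower. Mapkapk2, whose kinase phosphorylates ZFP36, rose from 44.6 ± 1.52 to 131 ± 7.54 CPM (log2 1.56 ± 0.07), and the deadenylase subunit Cnot6l rose by 1.35 ± 0.08. Cnot3 fell by 0.77 ± 0.08 on the log2 scale. Cnot9 fell by 0.75 ± 0.07, a call that ended on TPM (log2 -0.18, adjusted p = 0.103).

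**Figure D5:**
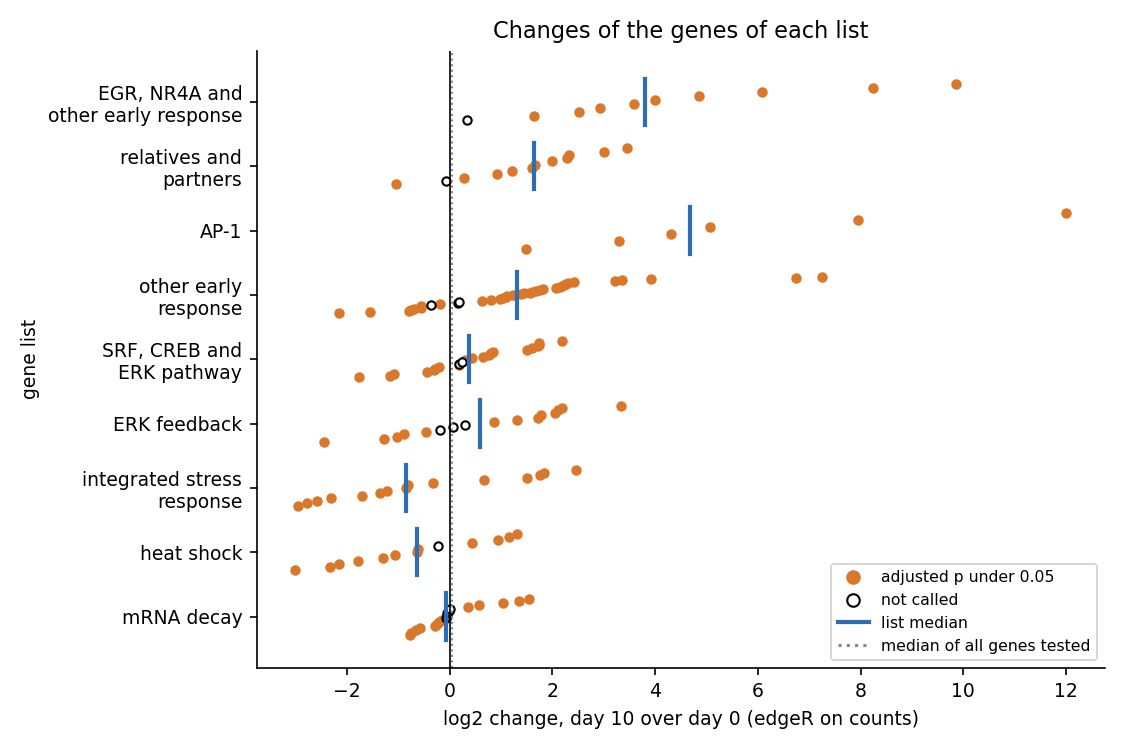
Log2 change of each tested gene, by list, with the list median as a blue bar and the median of all genes tested (0.06) as a dotted line. Of the 9 lists plotted, the AP-1 genes (median 4.69) and the 10 genes (median 3.80) have the highest medians, and the medians of the integrated stress response and heat shock lists lie below 0.

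Profiles over the 8 libraries were compared with 11037 other tested coding genes averaging at least 5 CPM by the root mean square difference of log2(CPM + 0.5), each gene being centred on its own mean. The genes nearest to Egr1 were Ptn, a heparin-binding growth factor (0.128), Runx1t1, a transcriptional corepressor (0.138), and Upk1b, an uroplakin (0.156), beside a median of 3.05 over all genes compared. Upk1b averaged 0.0922 CPM at day 0, where the added 0.5 shrinks the change. Its fitted log2 change was 8.86, against 6.07 for Egr1. Nearest to Nr4a1 were Tns1, an adhesion protein gene (0.0638), the kinase gene Prkce (0.0991) and the chromatin remodeller Smarca2 (0.102). Nearest to Ier2 were the transcription factor Gata6 (0.0650), Wbp1l (0.0756) and Nckap5l (0.0788). The measure rests on 2 groups of 4 libraries, and the likest of many genes are close by selection.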

How the data were processed

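The submitters' processing notes name kallisto, with the version written as 1, and DESeq2 for these 8 total RNA libraries. Which index and build were used is not given in the sources used here. Estimated counts per transcript were deposited by the authors without scaling, and the TPM columns they deposited sum to 1000000 per library. Transcripts were joined to GENCODE M21 by identifier without version (117992 of 126126 matched, and the rest held 1.15 to 1.23% of counts and were left out). M21 (GRCm38) supplied names, transcript types and 3′ UTRs, and RefSeq (GRCm38.p6) the promoters. Estimated counts were summed per gene, rounded and tested with the quasi-likelihood fit of edgeR 4.0.16 under R 4.3.3 (TMM, filterByExpr, robust, day as the sole term; glmTreat against a log2 change of 1). P-values were adjusted by Benjamini-Hochberg over 15097 genes at a threshold of 0.05. Each SE was derived from the F statistic, as log2 change over root F. For genes near 0 counts at day 0 this SE can be too small. DESeq2 gave an SE of 0.845 for Egr2 and 0.428 for Egr3, against 0.27 and 0.23 here. Intervals and floors (3 counts over the group) cover counting error only.

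Alternatives were DESeq2 1.42.0, DESeq2 size factors, upper quartile scaling, other filters, limma 3.58.1 on log2(TPM + 0.5) and log2(TPM + 0.1), length corrections, coding transcripts alone, a replicate block and leaving out each library. Tested on simulated data of the day 10 against day 0 comparison (14894 genes), the edgeR fit recovered 100% of genes changed by 2-fold or more and 62.1% of those changed by 1.4-fold, and called 13 unchanged genes. The simulation changed a small part of the genes, all averaging over 5 CPM, and used a common dispersion for all genes. Its figures do not cover genes near 0 counts at day 0, or data in which most genes change. The genes, lists and tests were chosen with earlier results of these data known. From each list, the text names called genes averaging at least 5 CPM: the top 2 that rose and the bottom 2 that fell, by log2 change.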

Additional observations from a re-analysis of the deposited data

Results flagged for a closer look

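A single library stood apart in 2 of 38 groups of 4 values checked with Dixon's test, of which chance flags about 1 in 20. Both concern 1 pair of transcripts. In day 0 library 2 the transcript Nr4a3-203 held 90.43% of the Nr4a3 counts and Nr4a3-201 held 9.566%, whereas in the other day 0 libraries Nr4a3-203 held 56.7 to 60.3%. These shares rest on 62 to 98 estimated counts of the gene per library.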

How the results depend on the processing

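Across 19 alternatives the direction and call of 9 of the 10 genes stood, and 9 or 10 were called higher, the tenth being Ier3 on TPM with either pseudocount (log2 0.78 and 0.79) and with the length trend removed (0.81). The 9 were called over 2-fold higher in each of 16 alternatives with that test. Leaving out 1 library at a time gave 9 called genes throughout, 6277 to 6560 genes called higher in all and 5810 to 6076 lower. Log2 changes moved most for Egr2 (6.52 to 10.73) and Egr3 (6.04 to 9.99), with 3 and 12 counts at day 0, which limits their precision.

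With a replicate block 9 of the 10 were called higher. The labels do not say that the replicate numbers pair libraries, and deviations of same-numbered libraries correlated across genes at 0.030 to 0.049, though each day 0 library correlated best with its own number. None of the 9 transcript shares passed by share of TPM. With 1 library left out the smallest two-sided exact p is 0.0571, so no share could pass and these values say nothing about the calls. Leaving out 1 library moved the difference of Zfp36-202 between 2.71 and 19.7 and that of Egr1-202 between 3.45 and 13.8 percentage points.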
